A study of Homo sapiens with 2 samples.

Results

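The integrated stress response was read here through 10 genes, the transcription factors ATF4, DDIT3, ATF3, ATF5, CEBPB and CEBPG and the regulators TRIB3, CHAC1, PPP1R15A and NUPR1. They were taken as a list of gene names, and every probe set of the array that names a listed gene was used, bright or dim. The list was chosen with earlier results of these data known. Member counts set beside shares of the whole array below are therefore descriptions and no independent evidence. All 10 genes were found, with 18 probe sets among the 37145 that name exactly 1 gene, and no member probe set also named another gene. The comparison was between PC3 cells given the solvent DMSO and PC3 cells given 10 µM fluphenazine, a phenothiazine antipsychotic, with 1 array for each and no time of treatment given in the sources used here. PC3 is an established human line of epithelial cells from a prostate cancer metastasis, grown in medium with fetal bovine serum. With 1 array per treatment no error between cultures exists, so every difference below is a difference between these 2 arrays and carries no p-value.

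The integrated stress response starts with kinases that phosphorylate the translation factor eIF2, which slows protein synthesis in general and favours the translation of a few mRNAs with upstream open reading frames, among them that of ATF4. ATF4 then switches on genes of amino acid supply and of stress defence, and with them further transcription factors such as DDIT3 and ATF3. Feedback regulators, above all the eIF2 phosphatase subunit PPP1R15A, bring translation back. The arrays measured RNA, so neither eIF2 phosphorylation nor the amount of ATF4 protein was observed.

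Values are log2 signals, and a difference is the fluphenazine value minus the DMSO value on that scale. Over 47693 probe sets the DMSO array had a median of 4.74 and the fluphenazine array one of 4.73. For 5 members more than 1 probe set was present, and the brightest then stands for the gene. A probe set is called dim here when both of its values lay under 6.19, the median over 18392 genes of the higher of their 2 values, and 13 of the 18 member probe sets reached that floor. As a description of disagreement between probe sets, differences of those that measure the same gene had a pooled SD of 0.20 over 9562 genes. It was 0.13 over the 3668 genes with several probe sets above the floor. This SD leaves out variation between cultures, RNA samples and arrays, which probe sets of the same gene share.

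Most of the 10 genes were higher with fluphenazine, by amounts from 1.04-fold to 1.95-fold, and ATF5 was not. By the brightest probe set 9 of 10 members had a difference above 0, where 49.4% of all genes did. Of the 18 probe sets 14 were higher, where 48.3% of all probe sets were. The median difference of the 10 genes was 0.33, against 0.00 over all genes. The genes furthest apart between the arrays were DDIT3, ATF3 and PPP1R15A, which were the 3 members at or past 1.5-fold higher, a fold that 0.701% of all genes reached. No member was 1.5-fold lower, as 0.859% of all genes were. All members lay above the floor by the brightest probe set. Of the genes above it 0.283% were 1.5-fold higher and 0.294% were 1.5-fold lower. The median of the members was 0.22 when the median signal of each gene's probe sets on each array replaced the brightest one. That setting read ATF3 at its dim probe set 1554980_a_at, at 0.14.

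**Figure D1:**
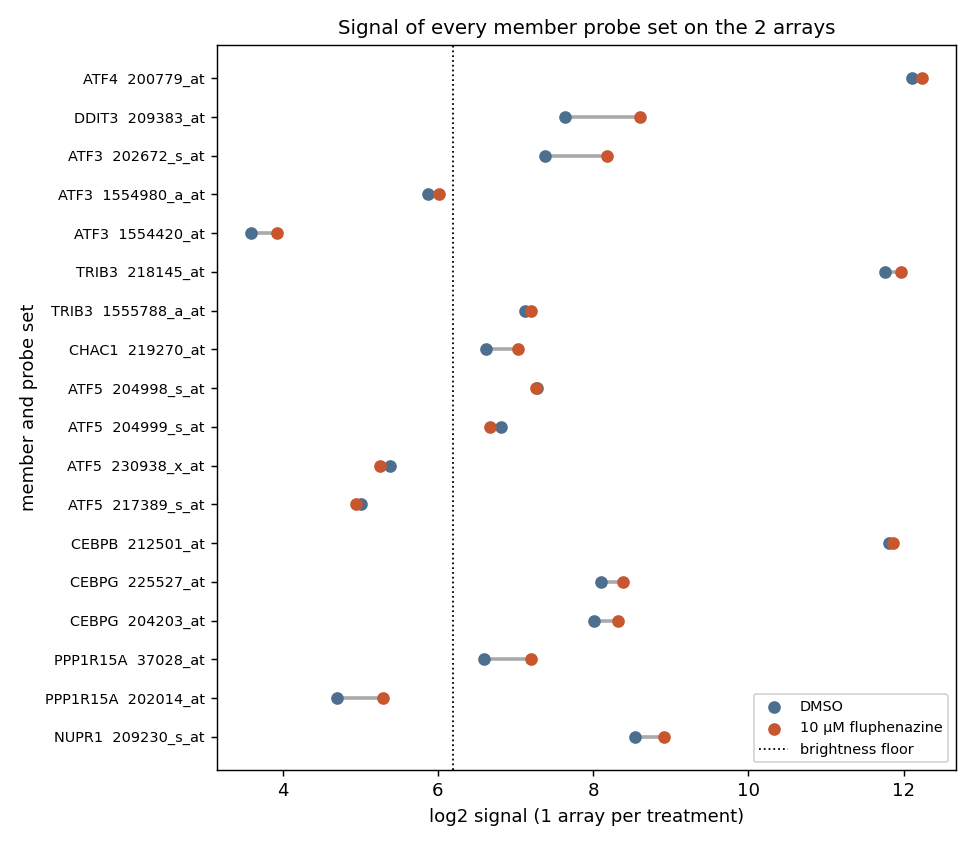
Log2 signal (x axis) of the 18 member probe sets (y axis) on the DMSO array (blue) and the 10 µM fluphenazine array (orange), with 1 array per treatment and no error bars; the dotted line is the brightness floor of 6.19. The grey bars join the 2 values of a probe set and are longest for DDIT3 and for the brightest probe set of ATF3, while those of ATF5 run the other way.

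ATF4 is the transcription factor at the centre of the response. Its single probe set, 200779_at, read 12.10 with DMSO and 12.24 with fluphenazine, a difference of 0.13 or 1.10-fold. Among the 321 probe sets within 0.5 of its mean signal, the range from the 5th to the 95th percentile of differences was -0.18 to 0.24. The ATF4 difference lay inside that range. ATF5 is a close relative of ATF4 that is likewise controlled in translation through upstream open reading frames. Its brightest probe set, 204998_s_at, read 7.28 with DMSO and 7.27 with fluphenazine, a difference of -0.01. A second one above the floor, 204999_s_at, read 6.82 and 6.67, a difference of -0.15. The dim probe sets 230938_x_at and 217389_s_at differed by -0.13 and -0.07. All 4 ATF5 probe sets were lower with fluphenazine as the values were deposited, each by less than the spread among probe sets of like brightness, and the brightest turned to 0.01 under quantile normalization and under intensity-dependent centring.

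DDIT3, also called CHOP, is a transcription factor that pairs with C/EBP proteins and promotes cell death under lasting stress. Its single probe set, 209383_at, read 7.64 with DMSO and 8.60 with fluphenazine. That is a difference of 0.96, or 1.95-fold, and ranked 11th among 18392 genes and 5th among the 9196 genes above the floor. The 5th to 95th percentile range of probe sets of like brightness was -0.25 to 0.24, so DDIT3 lay far outside it. With a single probe set, no second reading of DDIT3 exists on these arrays.

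ATF3 is a stress-induced transcription factor of the same bZIP class. Its brightest probe set, 202672_s_at, read 7.38 with DMSO and 8.17 with fluphenazine, a difference of 0.79 or 1.73-fold. The other 2 were dim. Probe set 1554980_a_at read 5.88 and 6.01, a difference of 0.14. Probe set 1554420_at read 3.59 and 3.93, a difference of 0.33. All 3 were higher on the fluphenazine array, but only the brightest lay outside the range of probe sets of like brightness. The mean over the 3 was 0.42 ± 0.33 (SD over probe sets, which are not replicates), so ATF3 passes 1.5-fold by its brightest probe set and not by the mean.

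CEBPB and CEBPG are C/EBP proteins that can pair with ATF4 or DDIT3 on DNA. CEBPB, measured by 212501_at, read 11.81 with DMSO and 11.86 with fluphenazine, a difference of 0.05 that lay inside the range of probe sets of like brightness. CEBPG, which has a DNA-binding zipper but lacks the activation domain of other C/EBP proteins, differed more. Probe set 225527_at read 8.10 and 8.39, and probe set 204203_at read 8.01 and 8.32. Their differences of 0.29 and 0.30 were nearly the same, and both lay above the 95th percentile of like brightness, which was 0.24 for each. The 2 C/EBP members thus differed in how far they stood from the bulk of the array, CEBPB inside it and CEBPG, at 1.22-fold, just outside.

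PPP1R15A, also called GADD34, brings protein phosphatase 1 to eIF2 and reverses its phosphorylation. Probe set 37028_at read 6.60 with DMSO and 7.20 with fluphenazine, a difference of 0.61 or 1.52-fold. The dim probe set 202014_at read 4.70 and 5.30, a difference of 0.60 or 1.51-fold. Both lay above the 95th percentile of probe sets of like brightness, at 0.28 and 0.38. The pair agreed within 0.01, the closest of the 5 members with several probe sets, and both stood only just past the 1.5-fold line at 0.58. PPP1R15A ranked 22nd among genes above the floor. Its constitutive relative PPP1R15B, which does the same in unstressed cells, read 9.33 and 9.52, a difference of 0.19.

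TRIB3 is a pseudokinase that binds ATF4 and DDIT3 and dampens them. Its bright probe set, 218145_at, read 11.76 with DMSO and 11.97 with fluphenazine, a difference of 0.20 or 1.15-fold. The less bright 1555788_a_at read 7.13 and 7.20, a difference of 0.07. Both were higher with fluphenazine and both lay inside the range of probe sets of like brightness, which ended at 0.24 and 0.27.

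CHAC1 degrades glutathione and is a common marker of the response. Its probe set 219270_at read 6.62 with DMSO and 7.04 with fluphenazine, a difference of 0.42 or 1.34-fold, above the 95th percentile of 0.28. NUPR1 is a small stress-induced chromatin-associated protein. Its probe set 209230_s_at read 8.54 and 8.91, a difference of 0.37 or 1.29-fold, above the 95th percentile of 0.24. Neither reached 1.5-fold, and each rests on a single probe set.

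Over the 18 probe sets, 8 lay above the 95th percentile of probe sets of like brightness, as 4.96% of all probe sets did, and 10 lay inside the range. No member probe set lay below the 5th percentile. These 8 belong to 6 members, DDIT3, ATF3, CHAC1, CEBPG, PPP1R15A and NUPR1. At 1.5-fold 4 of 18 probe sets were higher and none lower, against 0.767% higher and 0.953% lower of all probe sets. At a looser threshold of 0.32 on the log2 scale 7 were higher and none lower, against 6.12% and 6.51%. By genes 5 of 10 were higher past that threshold, against 5.38% of all genes, and none was lower, against 5.38%. Among the 9196 genes above the floor, where all members lay, 247 were higher and 237 lower past it. At 2-fold the members counted none in either direction, where 0.0404% of probe sets were higher and 0.0754% lower, and 0.0489% of genes were higher and 0.0761% lower.

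**Figure D2:**
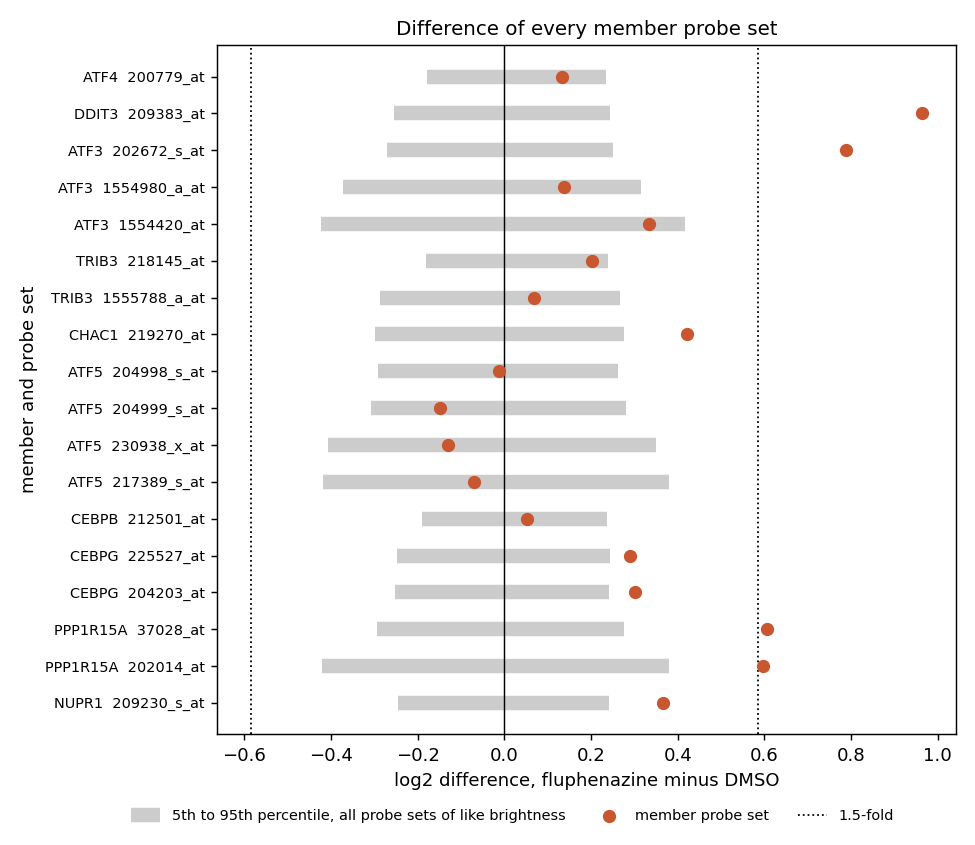
Log2 difference, fluphenazine minus DMSO (x axis), of the 18 member probe sets (orange points, y axis), with the 5th to 95th percentile of all probe sets within 0.5 of the same mean signal (grey bars) and the 1.5-fold lines (dotted). The points of DDIT3, the brightest ATF3 probe set and both PPP1R15A probe sets lie at or right of the 1.5-fold line, and the 4 ATF5 points lie left of 0.

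Promoter sequences, which are reference sequence and not measurements of these cells, were set beside the values because most members were higher on the same array. RefSeq windows of 300 bases, 250 before to 50 after an annotated start in build GRCh38.p14, matched 9 of 10 members, all but NUPR1, with 18 windows in all. Both strands were searched for 3 elements. These were the C/EBP-ATF composite element to which ATF4 binds with a C/EBP partner (TGATGNAAN, with N any base), the cAMP response element bound by ATF and CREB factors (TGACGTCA), and the endoplasmic reticulum stress element bound by ATF6 (CCAAT, then 9 bases of any kind, then CCACG). The composite element was found in 3 of 18 windows, 1 each for ATF3, CHAC1 and CEBPG, where 3.61% of all 35116 windows held it. By gene that was 3 of 9, against 4.45% of 27305 genes. The shares by gene are not alike, since the 9 members had more windows per gene and so more places for a match. The cAMP response element was found in 1 window, that of PPP1R15A, where 1.85% of all windows held it. The endoplasmic reticulum stress element was in no member window and in 0.0769% of all windows. These are matches of letters in a short window, not binding sites. The windows of DDIT3, ATF4, TRIB3, ATF5 and CEBPB held none of the 3, which says only that these letters are not there.

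The 4 matching stretches are shown because each belongs to a member that was higher on the fluphenazine array, with the match in capitals, all read 5′ to 3′ on the plus strand, which is the strand of each gene. For ATF3, CHAC1 and PPP1R15A the 250 bases before the start are given, at chr1:212565157-212565406, chr15:40953221-40953470 and chr19:48872171-48872420. The CEBPG window begins after another annotated start of that gene, so only the 30 bases around the match are given, at chr19:33374061-33374090.
CHAC1: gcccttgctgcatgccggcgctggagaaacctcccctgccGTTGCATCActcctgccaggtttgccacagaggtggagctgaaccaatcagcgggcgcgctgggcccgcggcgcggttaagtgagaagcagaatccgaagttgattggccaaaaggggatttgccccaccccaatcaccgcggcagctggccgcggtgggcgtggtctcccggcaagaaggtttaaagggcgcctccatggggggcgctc
CEBPG: gcgcggcgtcTGATGCAACctgccggcaac
ATF3: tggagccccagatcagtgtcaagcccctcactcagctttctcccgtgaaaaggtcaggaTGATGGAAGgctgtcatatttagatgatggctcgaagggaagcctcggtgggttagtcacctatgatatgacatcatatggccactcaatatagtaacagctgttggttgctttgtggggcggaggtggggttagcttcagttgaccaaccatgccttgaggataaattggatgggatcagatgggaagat
PPP1R15A: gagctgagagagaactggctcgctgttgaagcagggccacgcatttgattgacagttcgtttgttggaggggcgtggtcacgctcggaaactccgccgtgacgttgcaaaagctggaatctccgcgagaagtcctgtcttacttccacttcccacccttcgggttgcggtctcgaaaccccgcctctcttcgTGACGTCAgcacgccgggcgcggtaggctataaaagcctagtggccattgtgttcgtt

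In CHAC1 the composite element lies on the minus strand, 210 to 202 bases before the start, and reads TGATGCAAC there. The CEBPG match, 42 to 34 bases before its start, has the same 9 letters on the plus strand. The ATF3 match lies 191 to 183 bases before 1 of the 2 starts that the windows cover and reads TGATGGAAG, and which start the measured transcripts used was not tested. The match in PPP1R15A lies 58 to 51 bases before the start. CHAC1, which shares these letters with CEBPG, differed by 0.42 between the arrays, and CEBPG by 0.29.

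Transcripts of a list of genes around eIF2 went both ways. The list holds the eIF2 kinases, the subunits of eIF2 and of its exchange factor, phosphatase subunits and other related genes. Among all 9196 genes above the floor 48.2% were higher, 0.283% were 1.5-fold higher and 0.294% were 1.5-fold lower. Of the 21 genes of the eIF2 list, all above the floor, 12 were higher and 9 lower. None reached 1.5-fold, which is near those shares, and the median of the list was 0.00. EIF2AK3, also called PERK, the kinase that senses stress in the endoplasmic reticulum, had the largest difference by the brightest probe set, read at 8.84 with DMSO and 9.18 with fluphenazine, or 0.35. The kinase of amino acid starvation, EIF2AK4 (GCN2), was at 0.08 (0.35 by its other probe set), the heme-regulated kinase EIF2AK1 at -0.01 and the double-stranded RNA kinase EIF2AK2 (PKR), an interferon-induced gene, at -0.13 (down to -0.40 by its other probe sets). The eIF2 subunits EIF2S1, EIF2S2 and EIF2S3 were at -0.08, 0.08 and 0.04. At the other end of the list the phosphatase subunit PPP1CA, a catalytic partner of PPP1R15A, was at -0.18, and PPP1CB, another, was at 0.15 (up to 0.46 by its other probe sets). By the brightest probe sets, PPP1R15A had a larger difference than any gene of this list.

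Relatives of the members went both ways. Of 10 measured relatives 6 were above the floor, 3 higher and 3 lower, where 48.2% of all genes above the floor were higher. None was at 1.5-fold, where 0.283% of those genes were higher and 0.294% lower by that fold. The median of the 6 relatives was -0.04. With averaged probe sets the median was 0.05, but the floor was then set anew and the genes counted were not the same 6. TRIB2, a paralogue of TRIB3, was at -0.32, with both of its probe sets lower (-0.49 and -0.32). TRIB1 was at -0.10, with its other probe set at -0.57, and CEBPD, a C/EBP protein of the acute-phase response, at -0.20. CHAC2, which shares the activity of CHAC1 in a constitutive form, was at 0.05. Of the dim relatives, JDP2 was at 0.71.

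Among 26 other bZIP transcription factors above the floor, the protein class of ATF4, DDIT3, ATF3 and the C/EBP members, 18 were higher and 8 lower, with a median of 0.11 and none at 1.5-fold in either direction. Of all 9196 genes above the floor 48.2% were higher, 0.283% were 1.5-fold higher and 0.294% were 1.5-fold lower, with a median of -0.01. The most positive difference was that of CREB5, at 0.41, and the most negative that of CREB3L4, at -0.21. The AP-1 subunits with which ATF3 can pair were at -0.10 for JUN, 0.11 for JUNB and 0.30 for JUND, and the probe sets of JUND spanned -0.22 to 0.30. JDP2, a relative of ATF3, was dim, at 5.21 with DMSO and 5.92 with fluphenazine. It is named after its values were seen, since its difference of 0.71 exceeded those of the factors above the floor, and its other probe set gave 0.07.

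Most genes known as targets of ATF4 or DDIT3 were higher too. Of 41 above the floor 39 were higher and 2 lower, with a median of 0.23, where 48.2% of all genes above the floor were higher. With the median signal of each gene's probe sets, the medians of the targets and of the members were both 0.22. That value for the members read ATF3 at a dim probe set, and the floor for the targets was set anew. It therefore does not show that members and targets were level. At 1.5-fold 3 targets were higher and none lower, where 0.283% of all genes above the floor were higher and 0.294% lower. The 3 targets were the stress cytokine GDF15 (1.30), the cysteine-making enzyme CTH (0.74) and the asparagine synthetase ASNS (0.62). Both CTH probe sets were higher, at 0.63 and 0.74. The dimmer probe sets of GDF15 gave less, down to 0.38, and that of ASNS gave -0.31. The largest difference the other way was that of LAMP3, a lysosomal membrane protein, at -0.42. INHBE, an activin subunit gene, is named after its values were seen, since it was left out as dim. It went from 4.77 on the DMSO array to 6.04 with fluphenazine, a difference of 1.27. This list was known to lie higher from earlier results on the same arrays, so its count is no independent evidence on the members.

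The endoplasmic reticulum genes that XBP1 and ATF6 control, listed together with XBP1, ATF6 and ERN1 themselves, were closer to 0 by their median. XBP1 and ATF6 are also counted among the other bZIP factors. Of 21 above the floor 15 were higher, with a median of 0.09, where 48.2% of all genes above the floor were higher. DNAJB9, a co-chaperone, was the only gene of this list at 1.5-fold, where 0.283% of all genes above the floor were 1.5-fold higher. It was at 0.59, and its other 2 probe sets gave up to 0.91. The count of the list went to none under quantile normalization and intensity-dependent centring. The chaperone HSPA5 was at 0.26 and HSP90B1 at -0.29. Between the members and this list no test of the difference was possible with 1 array per treatment.

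**Figure D3:**
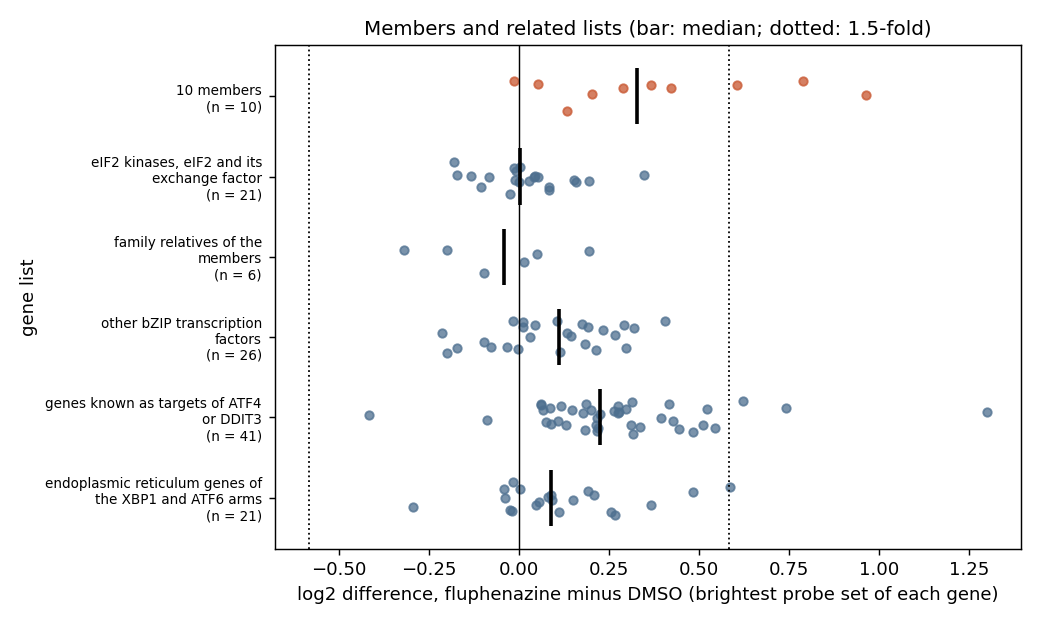
Log2 difference, fluphenazine minus DMSO (x axis), by the brightest probe set of each gene, for the 10 members (orange) and for 5 related lists above the floor (blue), with the median as a black bar and 1.5-fold as dotted lines; vertical scatter within a row only separates points. The medians run from 0.33 for the members and 0.23 for the ATF4 and DDIT3 targets to 0.00 for the eIF2 list. That of the relatives was -0.04. With the median signal of each gene's probe sets, members and targets both had 0.22. There ATF3 was read at a dim probe set and the floor for the targets was set anew.

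The identity of the cells was checked with marker genes. All 6 markers of the epithelial line, KRT8, KRT18, KRT19, EPCAM, VIM and CD44, were above the floor on both arrays, while KRT8 and VIM were at -0.42 and -0.48. Luminal prostate genes were listed as low in PC3. Of the 3 measured, KLK3 and TMPRSS2 were nevertheless above the floor on both arrays, at 6.93 and 6.99 with DMSO, and KLK2 was dim. Of 11 measured markers of blood, endothelium, fibroblasts and muscle only PECAM1 and COL1A1 were above the floor, on both arrays. The log2 signals of all 11 summed to 49.1 with DMSO and 50.4 with fluphenazine, with a median difference of 0.24. A sum of log2 values is not an amount of RNA, and all but PECAM1 and COL1A1 were dim. Of those 2, PECAM1 was at -0.27 and COL1A1 read 8.33 on both arrays. Bacterial poly-A transcripts added to the RNA before labelling were lower on the fluphenazine array at all 24 probe sets, by a median of 0.22, with -0.34 at 5′ ends and -0.12 at 3′ ends, while the ACTB control was at -0.13 at its 5′ end and 0.00 at its 3′ end. The GAPDH control went the other way, at 0.06 at its 5′ end and 0.03 at its 3′ end. A labelling kit for whole transcripts is named in the labels, whereas the probe sets are those of an array that reads 3′ ends, and how the kit was combined with this array is unknown here, which limits what the 5′ and 3′ values mean. The part of these shifts in the members' differences was not tested. In bulk RNA of this kind, fewer cells with a transcript and less of it per cell cannot be told apart.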

How the data were processed

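Signals of 2 arrays were used, 1 of PC3 cells with DMSO and 1 with fluphenazine. The deposited table holds 1 log2 value per probe set and array, a scale judged from its range of 1.60 to 14.28. The authors used RMA, Transcriptome Analysis Console 3.1 and Affymetrix Expression Console 1.4, in roles that are not stated, per the submitters' processing notes, with a genome build not given in the sources used here. Such normalization makes differences relative to the other genes on the array. Of 47693 probe sets, the platform annotation of 2016 names 1 gene for 37145, several for 1668 and none for 8821, and 59 are controls. Current symbols were taken by gene identifier for 18353 of 18392 genes.

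Differences were computed without a test, with 1.5-fold as the main threshold. All 10 members were to be named, and from the related lists the genes at or past 1.5-fold above the floor and the largest difference against the list's median; in the eIF2 and relatives lists any gene could be named. Other genes are added to show a role. The members and lists were chosen with earlier results of these data known. Alternatives were 3 scalings (median centring, quantile, lowess with a fraction of 0.1), 2 other folds and other floors. The mean or median of a gene's probe set signals on each array was also used. Where the scaling or this summary changed, the floor was set anew. Counting was tested on simulated data. Python 3.11.15, numpy 2.4.6, pandas 2.3.3, statsmodels 0.14.6 and matplotlib 3.10.9 were used. The number of arrays limits the precision.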

Additional observations from a re-analysis of the deposited data

How the results depend on the processing

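Under the 3 other scalings no member probe set moved by more than 0.03, and the only sign changes were 2 for the brightest ATF5 probe set. The median of the members ranged from 0.22 (median signal of probe sets, with ATF3 read at a dim one) to 0.34 (median centring). With the mean or median of probe sets 2 members were 1.5-fold higher in place of 3, without ATF3. At 2-fold 0 member probe sets, 0 members, 0 endoplasmic reticulum genes and 1 ATF4 or DDIT3 target were higher. At 0.32 on the log2 scale the counts of higher features were 7 member probe sets, 5 members, 1 eIF2 gene, 1 other bZIP factor, 12 targets and 3 endoplasmic reticulum genes, and 1 target was lower. Of all 9196 genes above the floor, 247 were higher and 237 lower past that threshold. Without the floor 1 relative, 1 other bZIP factor and 5 targets were 1.5-fold higher, where 0.701% of all genes were. The lists overlap, and the dim gene JDP2 is the relative and the bZIP factor counted here and also 1 of the 5 targets. It was at 0.71, and at 0.07 by its other probe set. Some other genes, such as PPP1R15B, also stand in more than 1 list. Quantile normalization and intensity-dependent centring left 0 endoplasmic reticulum genes 1.5-fold higher, DNAJB9 lying on the threshold. The median of the relatives was -0.04, and 0.05 with averaged probe sets, where the floor was set anew and the genes counted were not the same. No paired analysis was possible because each treatment has 1 array, and for the same reason no replicate could be left out.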
